A study of Mus musculus with 3 samples.

Results

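The 8 genes described here, Bcl2l1, Bcl2, Mcl1, Bcl2l11, Bad, Bid, Bak1 and Bax, encode the best known survival and death proteins of the BCL2 family. They were taken by name from the 21851 protein-coding genes of the GENCODE M21 basic annotation (mm10) on the assembled chromosomes, and the rule that defines them uses no measured value. Their accessible chromatin was described from peaks within 1000 bp of a protein-coding start (promoter peaks), in the gene, or within 50 kb on either side (together, the gene's window). The data were DNase-seq peak lists from MEL, an immortalized mouse erythroleukemia line, in 1 condition with no treatment given in the labels. There were 3 libraries from 2 biological replicates, 2 libraries for biological replicate 1 and 1 library for biological replicate 2, and the authors' lists hold 1 set of peaks for each biological replicate. Both replicates are the same line, so they carry no spread between animals. With 1 list for each replicate no test between samples was possible, and the values of the replicates are given side by side.

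DNase I cuts DNA that is not covered by nucleosomes, so the ends of its fragments pile up at promoters, enhancers and other occupied regulatory sites. Proteins of the BCL2 family meet at the outer membrane of mitochondria: effectors (Bak1, Bax) open a pore that lets cytochrome c out, survival proteins (Bcl2l1, Bcl2, Mcl1) hold the effectors in check, and BH3-only proteins (Bcl2l11, Bad, Bid) report stress by binding one or the other. In red cell precursors erythropoietin acts through STAT5, and Bcl2l1, whose long product is BCL-XL, is a textbook survival gene of that lineage.

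There were 281600 peaks in the list of replicate 1 (median score 73) and 89046 in that of replicate 2 (median score 32). Each peak is 150 bp wide and carries the authors' score, a whole number of at most 150; the sources used here do not say what it counts. Scores near 150 are compressed, so the replicate 2 list separates strong sites better, and scores are compared within a list only. The promoters of the red cell regulators Gata1, Klf1, Tal1 and Epor all held peaks in both lists, with replicate 2 scores of 71, 84, 46 and 106 and replicate 1 scores of 141, 140, 143 and 149.

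All 8 genes had a promoter peak in both lists. Among all protein-coding genes 58.3% had one in the replicate 1 list, 49.4% in the replicate 2 list and 49.4% in both. All 8 genes also had a start inside a hotspot, a broader enriched region called by the authors, against 51.8% of genes in replicate 1 and 42.4% in replicate 2. Of the 22 distinct starts of the 8 genes, 22 and 19 lay in a hotspot. Presence of an open promoter thus did not separate the survival from the death genes. The strength of the promoter peaks did vary. The median of the 8 highest promoter scores was 143.5 in replicate 1, beside 139 over all genes with a promoter peak, and 58.5 in replicate 2, beside 63. In replicate 1 6 of the 8 stood above the median of all genes, and in replicate 2 3 of the 8 did (Mcl1, Bcl2l1 and Bad). Promoter scores of the family therefore lay in the ordinary range of open promoters.

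**Figure D1:**
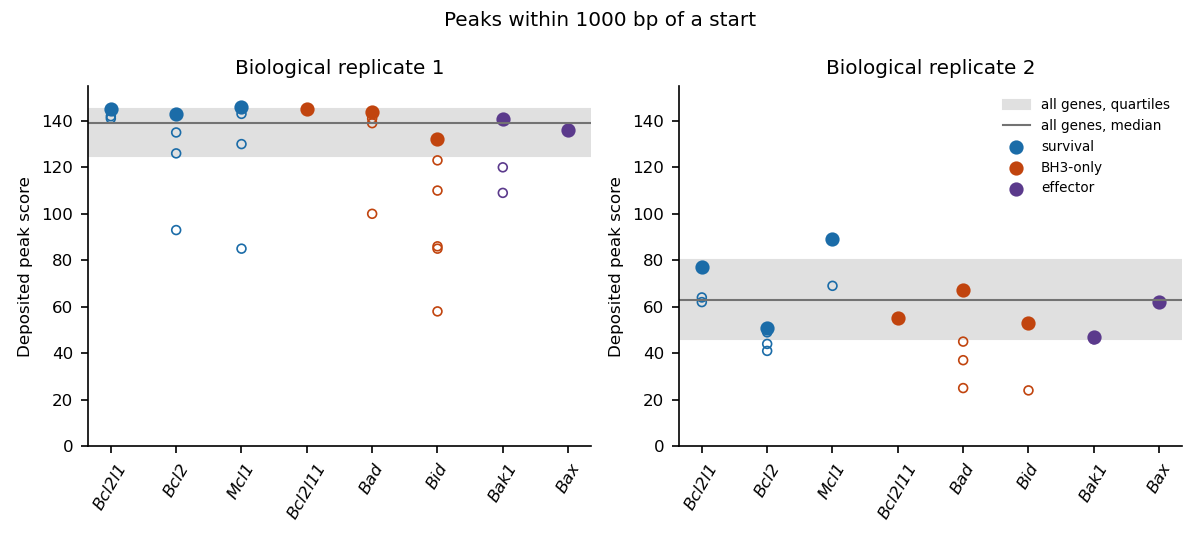
Deposited scores of all peaks within 1000 bp of a start of each gene in the 2 lists; filled points are the highest peak of a gene, open points its other promoter peaks, and the grey band and line are the quartiles and median over all protein-coding genes with a promoter peak. In replicate 2 Mcl1 (89) lies above the band, Bak1 (47) near its lower edge, and the other 6 genes inside it.

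Among the survival genes, Mcl1 had the strongest promoter. MCL1 is a short-lived protein that blood stem cells and early precursors need to survive. Its highest promoter peak scored 146 in replicate 1 and 89 in replicate 2, at the 81.1 and 85.5 percentile of genes with a promoter peak, and the replicate 2 peak was centred 57 bp upstream of the start. A second peak 734 bp inside the gene scored 143 and 69. In replicate 1 a single hotspot of 6844 bp covered 100% of the 4.39 kb gene, wider than the start hotspot of nearly every other gene (99.6 percentile; the median over genes is 2054 bp). In replicate 2 the start hotspot measured 471 bp, below the median of 538 bp, so the wide open stretch was seen in 1 list. The bases of the promoter peak upstream of the start, on the plus strand of mm10 at chr3:95658656-95658787, are shown because this is the strongest promoter of the 8 genes. A second stretch is the peak at chr3:95650736-95650885, centred 7977 bp upstream of the start and nearest to Mcl1, which scored 150 and 104. Capitals mark motif matches on either strand: in the promoter CCGGAAG (ETS), GGGCGG (SP) and GAGGAAG (PU.1), and in the upstream peak TGANTCA (AP-1), 2 copies of GAGGAAG and CCNCNCCC (KLF).
Mcl1 promoter peak, upstream bases: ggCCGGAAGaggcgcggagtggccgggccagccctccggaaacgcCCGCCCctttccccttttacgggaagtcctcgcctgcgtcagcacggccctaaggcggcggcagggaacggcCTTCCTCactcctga
Mcl1 upstream peak: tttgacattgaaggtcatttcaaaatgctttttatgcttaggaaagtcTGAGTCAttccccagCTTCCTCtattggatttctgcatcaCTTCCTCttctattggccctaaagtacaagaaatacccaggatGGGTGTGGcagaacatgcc

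At least 2 PU.1 matches were found in 2.72% of all replicate 2 peaks and in 5 of the 170 in the windows, or 2.94%. In replicate 1 the shares were 2.31% of all peaks and 1.5% of those in the windows. PU.1 is the ETS factor whose activation by the Friend virus is a classic step in erythroleukemia. A match is a run of letters and does not show that a factor was bound. The Mcl1 window was also crowded. It held 77 peaks in replicate 1 and 28 in replicate 2, or 73.8 and 26.8 per 100 kb, the highest density among the 8 genes in both lists. The strongest peaks outside promoters of other genes were at chr3:95674296-95674445 (15.6 kb downstream of the start, nearest to Adamtsl4; scores 150 and 116), the upstream peak shown above, and chr3:95645436-95645585 (13.3 kb upstream; 146 and 101).

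The whole neighbourhood of Mcl1 scored high. Of the 73 other protein-coding genes with a start within 1 Mb, 64 had a promoter peak in replicate 1, with a median score of 149, and 60 in replicate 2, with a median of 103.5. Of these, 41 scored above Mcl1 in replicate 1 and 39 in replicate 2. The 2 Mb held 59.1 and 21.8 peaks per 100 kb. Around the other members the same span held 19.4 to 34.3 in replicate 1 and 7.5 to 12.1 in replicate 2. Over the windows of all genes, a different unit, the medians were 20.6 and 6.78. The part of this stretch of chromosome in the Mcl1 values was not tested.

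Bcl2l1, in contrast, scored above most of its neighbours. The 3 annotated starts span 1418 bp and carried 3 peaks in each list, with scores of 141, 145 and 142 in replicate 1 and of 62, 77 and 64 in replicate 2, from the most upstream to the most downstream peak. The highest lay 317 bp inside the gene in replicate 2, in an intron, at the 76.3 and 71 percentile of genes. Within 1 Mb only 2 of 37 other genes with a promoter peak scored higher in replicate 1 and 3 of 25 in replicate 2, where their median was 52. In replicate 2 the widest start hotspot of Bcl2l1, 941 bp, was the widest of the 8 genes, beside 928 bp for Bcl2l11. In replicate 1 the start hotspot of Bcl2l1 measured 1927 bp (44.3 percentile), below the median over genes of 2054 bp. The promoter peak (chr2:152831336-152831485), shown on the minus strand, the gene's own, holds GGGCGG.
Bcl2l1 promoter peak: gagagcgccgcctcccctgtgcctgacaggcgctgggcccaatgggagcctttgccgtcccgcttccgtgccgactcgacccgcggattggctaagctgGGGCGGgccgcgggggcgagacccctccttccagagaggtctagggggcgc

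Outside promoters of other genes, the 2 strongest replicate 2 peaks of the Bcl2l1 window, at chr2:152741776-152741925 (148 and 95) and chr2:152739896-152740045 (149 and 93), lay 89.9 and 91.8 kb from the start beyond the far end of the gene. Both were nearest to Id1, 5600 and 3720 bp from its start, and which gene they act on was not measured. Of the 30 replicate 2 peaks in the window 16 lay downstream of the gene, and 9 had Bcl2l1 as the nearest start.

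Bcl2, the founding member of the family, had low promoter peaks in replicate 2 and high peaks deep inside a long gene. Its 176 kb hold 2 annotated starts 1095 bp apart. The promoter peaks scored 126, 93, 143, 135 and 143 in replicate 1 and 51, 44, 49 and 41 in replicate 2. In replicate 1 the highest was at the 66.6 percentile of genes, above the median. The replicate 2 peaks were even and low, at the 31.6 percentile of genes for the highest. Widening the promoter to 2500 bp raised that percentile to 53.6, since a peak of 65 lay 1097 bp upstream. The strongest peak in the window lay 86.8 kb inside the gene, in an intron, at chr1:106627376-106627525, with scores of 150 and 107. The replicate 2 score was 56 above the promoter, the largest such gap among the 8 genes. A second intronic peak (chr1:106581916-106582065, 132 kb inside) scored 144 and 85, and a peak beyond the gene's end (chr1:106511736-106511885) scored 146 and 85. The strongest one is shown on the gene's minus strand because it held none of the 12 motifs searched, which says only that those letters are not in this window.
Bcl2 intronic peak: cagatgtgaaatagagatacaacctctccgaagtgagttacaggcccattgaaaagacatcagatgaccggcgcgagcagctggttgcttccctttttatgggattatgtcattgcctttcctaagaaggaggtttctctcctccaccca

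The window of this long gene held 82 and 34 peaks, the most of the 8 genes in both lists. Per 100 kb these were 29.7 and 12.3, at the 71.5 and 82 percentile of all genes. Bcl2 was the nearest start for 70 of the 82 in replicate 1 and 29 of the 34 in replicate 2. Within 1 Mb the other genes with a promoter peak numbered 8 and 7, with median promoter scores of 146 and 91, and 5 of them scored above Bcl2 in each list.

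Among the BH3-only genes, Bcl2l11 and Bid had their strongest replicate 2 sites far upstream, inside neighbouring genes, while around Bad no site outside the promoters of other genes scored far above its own promoter. Bcl2l11 encodes BIM, which binds all survival proteins and is held down by cytokine signals in blood cells. It had 1 promoter peak in each list, scoring 145 and 55 (76.3 and 37.4 percentile), over 4 starts within 12 bp of each other. Its window held 41 and 13 peaks, beside medians of 28 and 9 over all genes, and none of them lay within 1000 bp of another gene's start. The 9.52 per 100 kb in replicate 2 was the lowest of the 8 genes in that list and at the 68.3 percentile of all genes. The strongest sites were a pair 41.2 and 40.3 kb upstream, in an intron of the neighbouring gene Acoxl, at chr2:128084756-128084905 (147 and 90) and chr2:128085616-128085765 (138 and 69). Both still had Bcl2l11 as the nearest protein-coding start. The next was at 1.41 kb inside the gene (137 and 56). The promoter bases upstream of the start, chr2:128125896-128126037, hold 2 matches to GGGCGG, 6 to the KLF element CCNCNCCC, some of which overlap, and 1 to CCGGAAG (ETS). Each distal peak holds 2 matches to the GATA element (A or T, GATA, A or G), and the second also holds TGTGGT (RUNX). At least 2 GATA matches were found in 7.67% of all replicate 2 peaks and in 7.06% of those in the windows. The promoter bases and both distal peaks are shown on the plus strand.
Bcl2l11 promoter peak, upstream bases: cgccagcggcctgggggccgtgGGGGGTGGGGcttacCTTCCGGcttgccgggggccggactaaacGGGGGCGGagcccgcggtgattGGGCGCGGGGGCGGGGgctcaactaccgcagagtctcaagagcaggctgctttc
Bcl2l11 distal peak at 41.2 kb: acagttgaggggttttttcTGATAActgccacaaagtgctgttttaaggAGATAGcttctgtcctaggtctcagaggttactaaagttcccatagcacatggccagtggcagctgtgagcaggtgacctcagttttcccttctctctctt
Bcl2l11 distal peak at 40.3 kb: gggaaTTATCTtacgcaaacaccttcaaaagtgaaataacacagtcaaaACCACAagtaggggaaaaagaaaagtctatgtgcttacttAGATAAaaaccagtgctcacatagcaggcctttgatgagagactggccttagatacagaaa

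Bid links death receptors to mitochondria: caspase-8 cuts the protein and the fragment moves to the outer membrane. Its highest promoter peak scored 132 and 53, at the 33.8 and 34.4 percentile, and in replicate 1 this was the lowest of the 8 genes. The start hotspot measured 3859 bp in replicate 1 but 86 bp in replicate 2, narrower than nearly all start hotspots in that list (0.372 percentile). Stronger peaks lay just outside the 1000 bp limit, at 1.46 kb inside the gene (142 and 69), and with 2500 bp the percentiles became 63.4 and 59.8. The promoter of Bid had the lowest share of 32-bp words that occur once in the genome, 75.9%, beside 93.6 to 100% for the other 7 genes; its part in the score was not tested. The strongest peak of the window in replicate 2 lay 40018 bp upstream in an intron of Mical3, at chr6:120956796-120956945, with scores of 145 and 97. Another lay in an intron of Bcl2l13, a family relative on the far side, at chr6:120854516-120854665, with 146 and 67. On the gene's minus strand the upstream peak holds 3 GATA matches and 1 RUNX match, and the Bcl2l13 peak 2 and 1. The promoter bases at chr6:120916854-120916965 hold 2 copies of GGGCGG, 1 of them inside a KLF match that is directly followed by a GATA match.
Bid promoter peak, upstream bases: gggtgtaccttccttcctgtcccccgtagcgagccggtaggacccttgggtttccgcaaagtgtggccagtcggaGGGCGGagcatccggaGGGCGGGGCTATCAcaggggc
Bid upstream peak: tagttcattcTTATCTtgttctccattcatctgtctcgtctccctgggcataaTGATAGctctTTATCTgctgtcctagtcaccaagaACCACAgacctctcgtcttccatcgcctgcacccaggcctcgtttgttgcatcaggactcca
Bid peak in Bcl2l13: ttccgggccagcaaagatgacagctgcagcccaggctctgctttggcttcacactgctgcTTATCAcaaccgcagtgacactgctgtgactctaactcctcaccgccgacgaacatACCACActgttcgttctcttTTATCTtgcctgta

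At least 3 GATA matches were found in 1.05% of all replicate 2 peaks and in 2 of the 170 peaks in the windows. Of the 14 replicate 2 peaks around Bid 10 held a GATA match, beside 33.4% of all peaks in the list; the 14 share 1 locus, and the count was picked out after the values were seen.

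Bad, a BH3-only protein that growth factor signals silence by phosphorylation, had the most protein-coding neighbours in its window among the 8 genes. Its window held 14 other protein-coding genes, and the start region is shared with Gpr137. The promoter peaks scored 100, 141, 139 and 144 in replicate 1 and 25, 45, 37 and 67 in replicate 2, in the order of the chromosome. The last and highest (chr19:6942396-6942545) was centred 8 bp from a Bad start and lies in introns of both genes, at the 71.4 and 56.3 percentile. The 2 peaks farther upstream were nearer to the start of Gpr137. Of the 80 and 24 peaks in the window 36 and 16 lay within 1000 bp of another gene's start, and 10 and 4 had Bad as the nearest start. Most peaks behind the density of 72.7 and 21.8 per 100 kb were thus nearer to other genes. Outside other promoters the strongest peaks were a partly overlapping pair 47.6 and 47.5 kb upstream, nearest to Prdx5 (138 in replicate 1 for each, 73 and 57 in replicate 2), and a peak over a Bad exon 9.73 kb from the outermost start (142 and 64). In replicate 1 Bad was the exception among the 8 genes in having no higher peak away from starts.

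The effectors had modest promoter peaks. Bak1 encodes BAK, which sits in the outer mitochondrial membrane. Its 3 promoter peaks in replicate 1 scored 120, 109 and 141, and its 2 in replicate 2 scored 46 and 47. The highest was at the 57.9 and 26.4 percentile, and the replicate 2 value was the lowest of the 8 genes. Its promoter also had the lowest CpG content, with an observed to expected ratio of 0.279 beside 0.571 for the median gene, while the other 7 ranged from 0.707 to 0.962. The start hotspot in replicate 2 measured 147 bp (1.89 percentile). A start of Ggnbp1 lies within 1000 bp of the highest promoter peak in both lists, so that peak cannot be assigned to Bak1 alone. The strongest distal peak, 16.8 kb from the start in an intron of Ggnbp1 (chr17:27012116-27012265), scored 147 and 85, beside 139 and 56 for a peak 3.48 kb inside Bak1 and 133 and 54 for one at 23.2 kb. It is shown on the minus strand and holds 2 overlapping KLF matches.
Bak1 distal peak in Ggnbp1: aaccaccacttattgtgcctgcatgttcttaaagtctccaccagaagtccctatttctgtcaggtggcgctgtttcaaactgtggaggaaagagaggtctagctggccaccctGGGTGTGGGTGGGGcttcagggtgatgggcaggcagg

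Bax encodes the effector that moves from the cytosol to mitochondria and is a known p53 target. It had 1 promoter peak, at the same position in both lists (chr7:45466836-45466985, centred 13 bp from the start), with scores of 136 and 62 at the 42.1 and 48.2 percentile. The Bax start lies in an intron of Gm45808, an annotated gene that spans it. No peak lay elsewhere in the 5.2 kb gene in either list. The window held 41 and 13 peaks and 9 other protein-coding genes, and 17 of the 41 replicate 1 peaks lay at starts of other genes. The strongest peak outside other promoters (chr7:45508636-45508785; 144 and 87) was 1615 bp from the start of Nucb1, and one 9.35 kb from the Bax start (143 and 65) was nearest to Ftl1, the ferritin light chain gene. Between them in rank, a peak 14.7 kb upstream at chr7:45481516-45481665, nearest to Tulp2, scored 136 and 66 and holds 2 matches to TTCNNNGAA, the STAT element, and a KLF match that contains GGGCGG. Among all replicate 2 peaks 4.37% held a STAT match and 0.117% held at least 2. Both Bax stretches are on the minus strand. The promoter bases upstream of the start (chr7:45466899-45466985) hold CACGTG, the MYC element, and a KLF match that contains GGGCGG on the opposite strand.
Bax promoter peak, upstream bases: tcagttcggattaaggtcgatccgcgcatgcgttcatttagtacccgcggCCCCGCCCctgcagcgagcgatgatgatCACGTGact
Bax upstream peak: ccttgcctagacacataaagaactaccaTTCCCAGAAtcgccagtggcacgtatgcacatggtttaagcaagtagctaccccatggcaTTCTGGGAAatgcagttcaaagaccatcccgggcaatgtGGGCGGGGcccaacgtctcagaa

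A strict p53 element, searched as the full consensus by name, was found in none of the 170 replicate 2 and 467 replicate 1 peaks of the windows. It was found in 0.00788% and 0.00569% of all peaks, so the strict form is too rare here to compare.

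**Figure D2:**
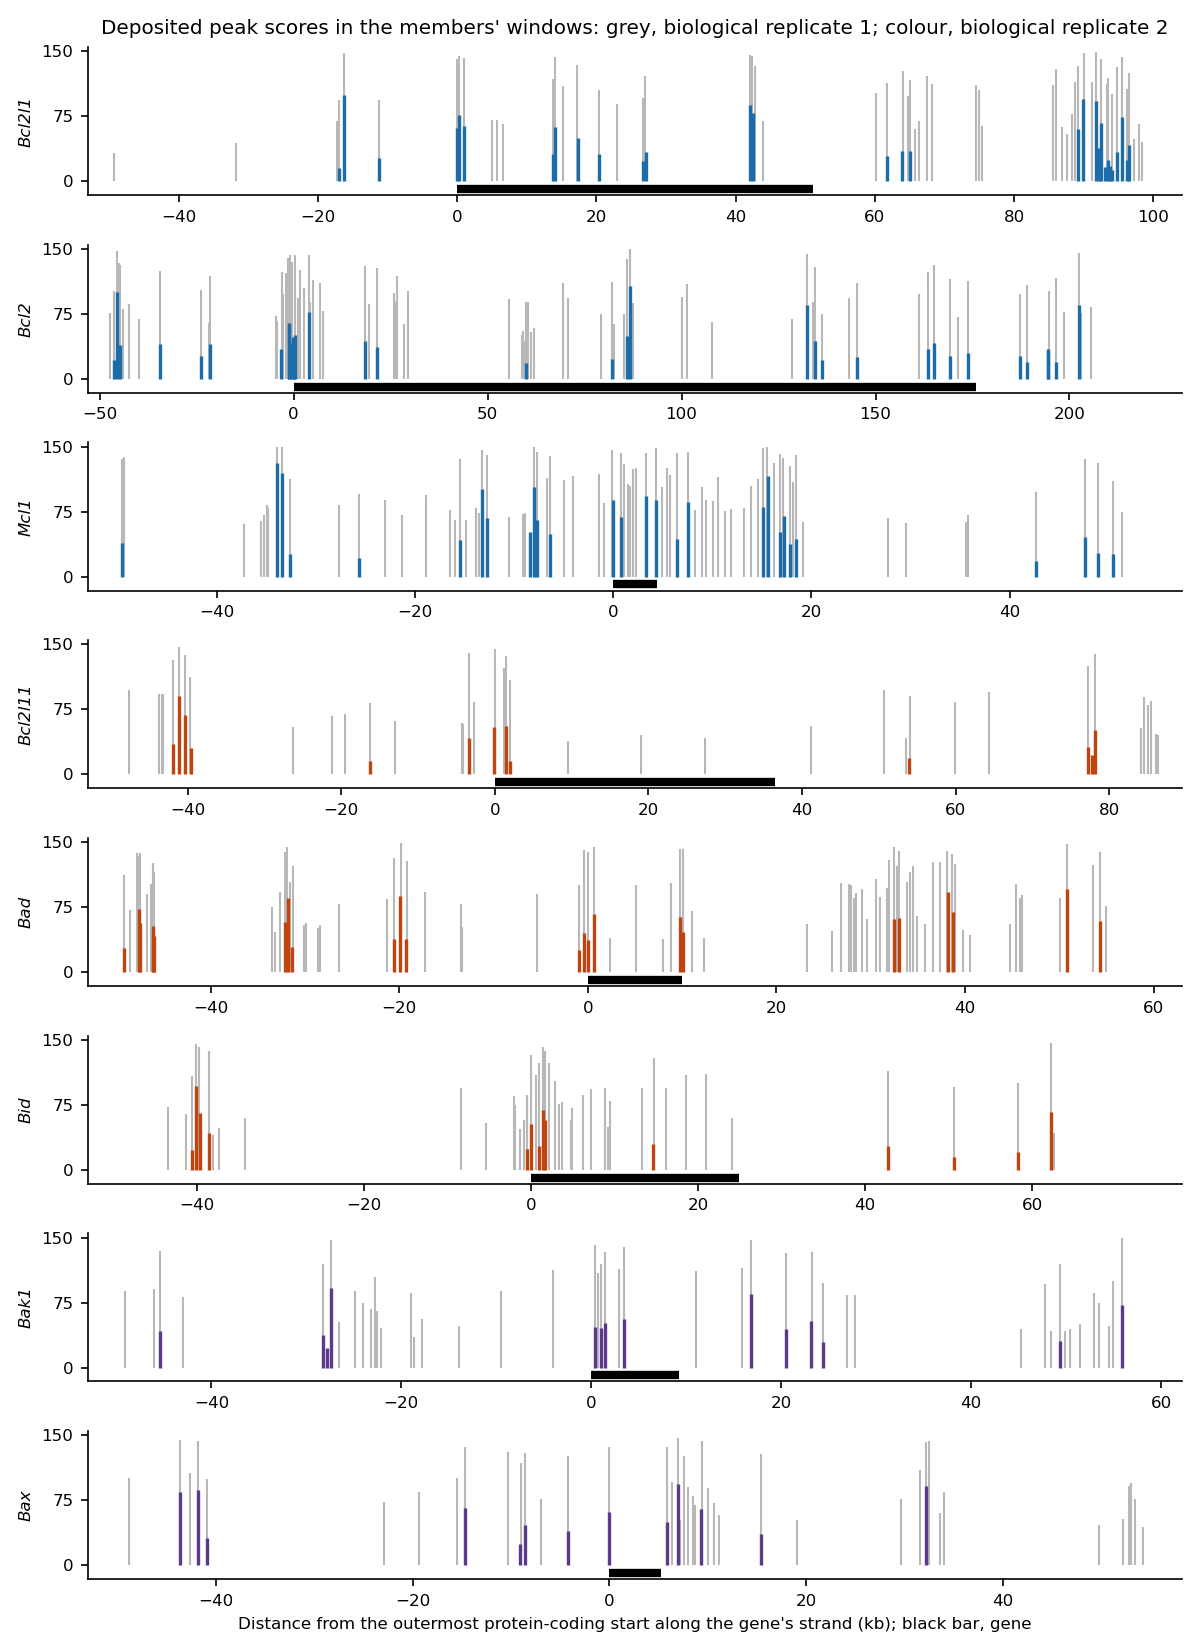
Deposited scores of all peaks in the 8 windows against the distance in kb from the outermost protein-coding start, along each gene's strand; grey lines are replicate 1, coloured lines replicate 2 and the black bar the gene. Peaks higher than the promoter peaks stand in every window in replicate 2, such as 107 inside Bcl2 at 86.8 kb and 97 upstream of Bid at 40018 bp.

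The highest site away from starts mostly scored above the promoter, although the median peak of a window did not. In replicate 2 all 8 windows held a peak over 1000 bp from any protein-coding start that scored above the gene's own promoter, and in replicate 1 7 of 8 did. Among all genes with a promoter peak this was so for 50.2% in replicate 2 and 56.1% in replicate 1. The excess in replicate 2 ran from 6 (Bad) to 56 (Bcl2). It was 44 for Bid, 38 for Bak1, 35 for Bcl2l11, 27 for Mcl1, 25 for Bax and 18 for Bcl2l1. Longer windows and more crowded ones give more chances for such a peak, and the windows of these genes were crowded, so the comparison was not adjusted for the number of peaks. It was added after the values were seen.

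Peak numbers in the windows were above the typical gene for all 8. The median was 51 peaks in replicate 1, from 41 to 82, beside a median of 28 over all genes (quartiles 12 and 42). In replicate 2 it was 19, from 13 to 34, beside 9 (3 and 14). Per 100 kb of window, which takes out the length of the gene, the medians were 38.4 and 12.6, beside 20.6 and 6.78. By that measure the lowest were Bcl2l11 and Bcl2 in replicate 1, at the 72.2 and 71.5 percentile of genes, and Bcl2l11 and Bid in replicate 2, at the 68.3 and 77.3 percentile. Survival genes had 30, 34 and 28 peaks in replicate 2, beside 13, 24 and 14 for the BH3-only genes and 14 and 13 for the effectors. That order did not hold in replicate 1, where Bad had 80 beside 57 for Bcl2l1 and 77 for Mcl1, nor per 100 kb in replicate 2, where Bad had 21.8 beside 19.9 for Bcl2l1 and 12.3 for Bcl2. Those 3 groups hold 3, 3 and 2 genes and were not tested against each other. All 8 genes have a promoter peak, while 58.3% of the comparison genes have one in replicate 1 and 49.4% in replicate 2. Peak numbers were not compared with genes with a promoter peak alone.

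**Figure D3:**
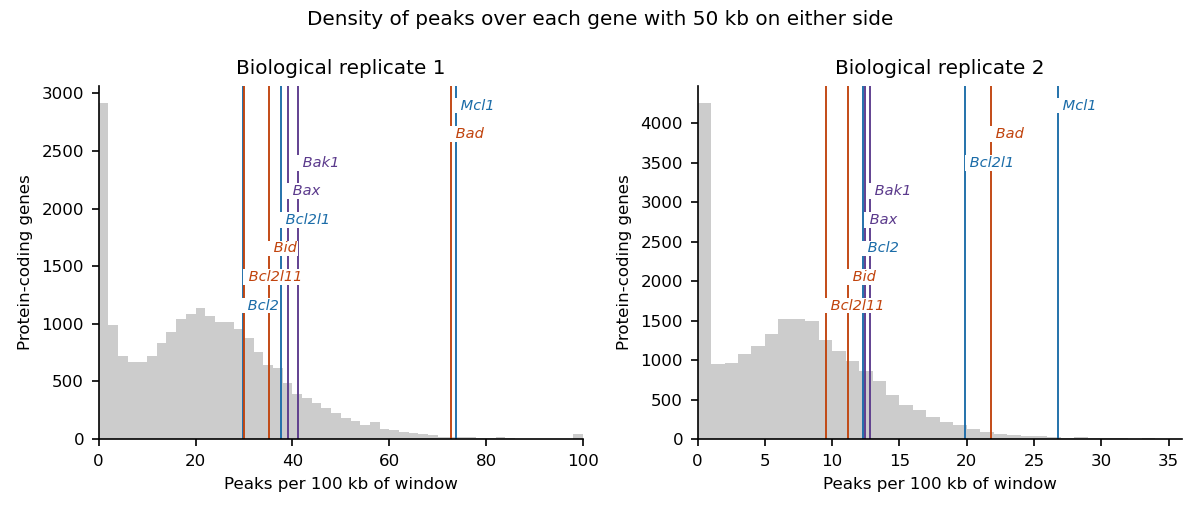
Peaks per 100 kb of window for all 21851 protein-coding genes (grey bars; in replicate 1 the last bar also holds all higher values, and in replicate 2 the axis ends before the highest) and for the 8 genes (lines). Mcl1 and Bad lie far to the right at 73.8 and 72.7 in replicate 1 and at 26.8 and 21.8 in replicate 2.

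Nearly all replicate 2 peaks in the windows were also in the replicate 1 list. Of the 170 replicate 2 peaks in the windows 161 were overlapped by at least 1 bp by a replicate 1 peak, or 94.7% (Wilson 95% interval 90.2 to 97.2%), beside 94.6% of all peaks. Of the 467 replicate 1 peaks 164 were overlapped, or 35.1% (30.9 to 39.6%), beside 30.2% of all peaks, which the interval leaves out. The intervals cover counting error over peaks, which are not independent replicates. Overlapped replicate 1 peaks had a median score of 135.5 and the others 83. In promoters 20 of 27 replicate 1 peaks were overlapped, or 74.1% (55.3 to 86.8%), and in gene bodies 33 of 103, or 32% (23.8 to 41.6%). Each of the 24 strongest replicate 2 peaks outside other promoters, 3 for each gene, was overlapped by a replicate 1 peak.

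Around the other genes the neighbourhood was less extreme than around Mcl1. Median promoter scores of the other genes within 1 Mb in replicate 2 were 63 for Bcl2l11, 66 for Bad, 61 for Bid, 58 for Bak1 and 82.5 for Bax. Bax scored 62 and lay below 46 of its 66 neighbours with a promoter peak, and Bad at 67 lay below 21 of 46. Only Bcl2l1 and Bad scored above the median of their neighbours in replicate 2.

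**Figure D4:**
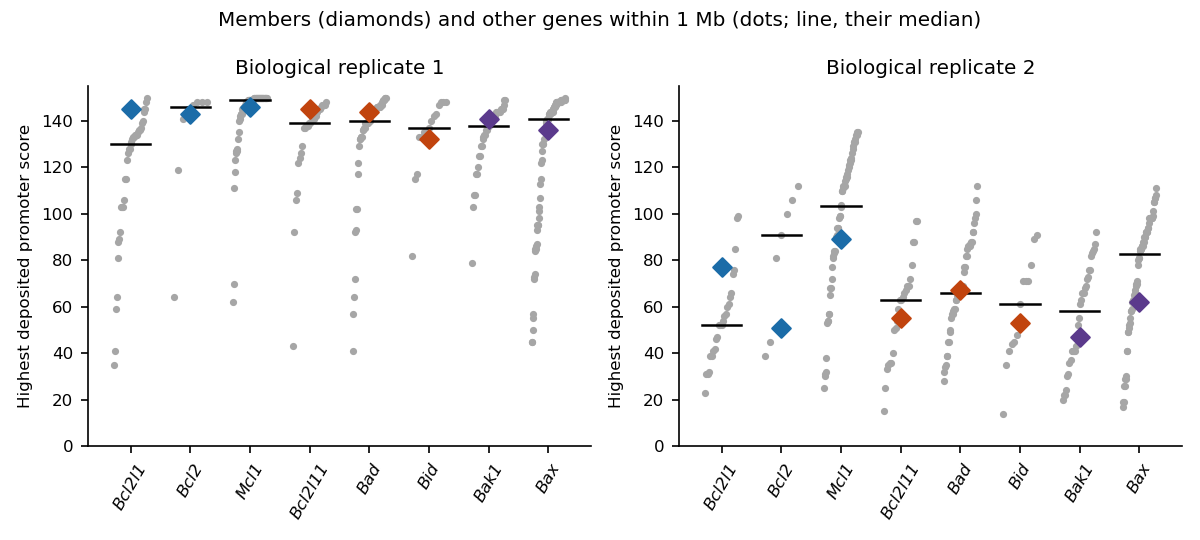
Highest promoter score of each of the 8 genes (diamonds) and of the other protein-coding genes with a promoter peak within 1 Mb (dots, spread sideways in order of score; line, median), by list. In replicate 2 Bcl2l1 (77) stands above its neighbours' median of 52, and Mcl1 (89) below its neighbours' median of 103.5.

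The wider pathway was open at most but not all promoters. Of 49 further genes of cell death in 8 lists by role, 45 had a promoter peak in replicate 1 and 41 in replicate 2, with median scores of 140 and 66 among those that had one; over all genes 58.3% and 49.4% had one. The 4 genes that lacked a promoter peak in each of the lists were Bcl2l10 (a survival relative), Hrk (a BH3-only gene known from neurons), Bok (an effector relative) and Fas (the death receptor). Of the 32-bp words in their promoters 96.3 to 99.7% occur once in the genome. Bbc3, the p53 target PUMA, had a promoter peak in replicate 1 alone, with a score of 132, and so did the death receptor Tnfrsf10b with 96; genes with a peak in 1 list were named after their values were seen.

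Of 5 survival relatives 4 and 2 had a promoter peak. Bcl2l2, which encodes BCL-W, was highest in replicate 2 with 42 (130 in replicate 1) and Bcl2a1d lowest with 39 (110). Bcl2a1a and Bcl2a1b had peaks in replicate 1 alone (58 and 68). The 3 Bcl2a1 copies have only 18 to 26.9% of promoter words unique in the genome, so many reads there may fit more than 1 place and these entries are uncertain. Of 7 BH3-only relatives 6 and 5 had one. Bmf was highest with 98 (145) and Bik lowest with 27 (117). Bnip3l, also called NIX, which clears mitochondria from maturing red cells, scored 139 and 81, above every member but Mcl1 in replicate 2. In replicate 1 its score was at the 50.8 percentile of genes, above only Bid (132) and Bax (136) among the members. It was named after its value was seen. Of 5 other BCL2-like genes 4 had one in each list, with Bcl2l12 highest at 81 (147) and Bcl2l14 and Bcl2l15 lowest at 29 each (115 and 118).

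Every promoter in the lists of the mitochondrial pore and outlets and of the apoptosome and caspases was open. Among all genes 58.3% had a promoter peak in replicate 1 and 49.4% in replicate 2. All 8 pore and outlet genes had a peak in both lists, from the serine protease gene Htra2 at 90 (149 in replicate 1) to the channel gene Vdac1 at 38 (135). All 5 genes of the apoptosome and caspases did too. Casp6, an executioner caspase gene, was lowest at 52 (132), and the median of the 5 in replicate 2 was 58, below the 63 of the median gene. The 5 caspase inhibitors ran from Xiap at 36 (135) to Birc2 at 100 (149). Of the 8 genes of the death receptor arm, which acts through Bid, 7 and 6 had a promoter peak; Cflar, which encodes the caspase-8 inhibitor FLIP, was highest at 84 (147) and Tnfrsf1a lowest at 51 (144). The 6 genes for turnover and handling of the members had the highest median in replicate 2, 87.5. They ran from Bag6 at 33 (140) to Btrc, a ubiquitin ligase subunit, at 121 (148). The MCL1 ligase genes Huwe1 and Fbxw7 scored 102 and 108 in replicate 2, and both were named after their values were seen.

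**Figure D5:**
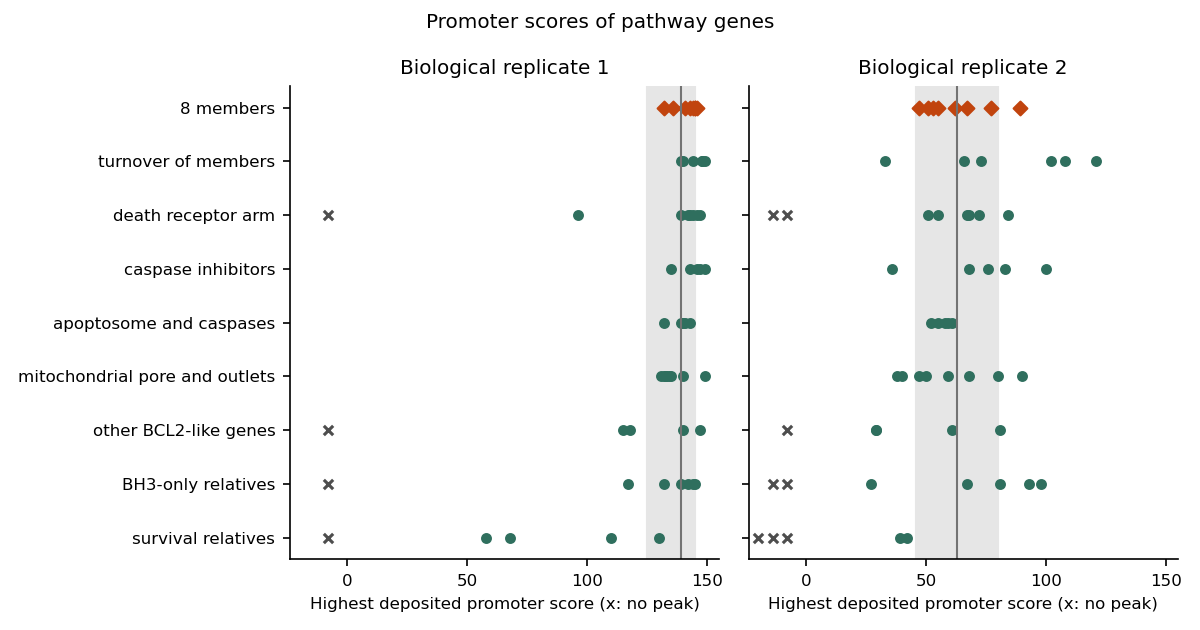
Highest promoter score of each of the 49 pathway genes by list of role (dots), with the 8 members in the top row (diamonds); crosses left of 0 are genes without a promoter peak, and the grey band and line are the quartiles and median over all genes. All genes of the pore, apoptosome, inhibitor and turnover lists have a peak in both lists, while crosses fall in the relatives and the death receptor arm.

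Shares of peaks with a GATA, STAT or CTCF match in replicate 2 had intervals that include the share over all peaks, and those for KLF and SP did not. In replicate 2 a GATA match was found in 56 of 170 peaks, or 32.9% (Wilson 95% interval 26.3 to 40.3%), beside 33.4% of all peaks. A STAT match was found in 5.88% (3.23 to 10.5%), beside 4.37%, and a CTCF match in 2.94% (1.26 to 6.7%), beside 4.74%. The interval left out the share over all peaks for KLF, 31.8% (25.2 to 39.1%) beside 24.1%, and for SP, 20% (14.7 to 26.6%) beside 12.7%. KLF and SP matches can be the same letters. Replicate 1 gave 27.2% beside 30.6% for GATA and 24.2% (20.5 to 28.3%) beside 18.1% for KLF. There the interval also left out the share over all peaks for SP, 9.64% (7.28 to 12.7%) beside 6.58%, and for MYC, 4.28% (2.79 to 6.52%) beside 2.64%. The MYC share in replicate 2 was lower than over all peaks, 2.35% (0.919 to 5.89%) beside 3.66%. With the members' own promoter peaks left out, the replicate 1 MYC share in the windows was 3.86% (2.43 to 6.1%). That interval includes the 2.64% over all peaks. In the central 75 bp the replicate 1 interval also included the share over all peaks, 1.93% (1.02 to 3.62%) beside 1.4%. An SP match was found in 9 of 19 replicate 2 promoter peaks of the members. Without those peaks the SP share in the windows was 16.6% (11.5 to 23.3%), and that interval includes the share over all peaks. For SP and MYC alike, peaks at starts of neighbouring genes stayed in the windows. The share over all peaks kept every promoter peak. In the central 75 bp of each peak the KLF share was 16.5% (11.6 to 22.8%) beside 14.3% in replicate 2, which the interval includes, and 13.3% (10.5 to 16.7%) beside 10.4% in replicate 1, which it leaves out. The matches were uneven over the genes, with a KLF match in 12 of 24 replicate 2 peaks around Bad and 9 of 13 around Bax, and in 5 of 34 around Bcl2. Of the 24 strongest peaks outside other promoters, 3 for each gene, 10 held a GATA match, 11 a KLF match, 5 a PU.1 match and 3 a STAT match, and none held a CTCF, ETS, MYC or CRE match. Over all replicate 2 peaks the shares were 33.4% for GATA, 24.1% for KLF, 20.8% for PU.1 and 4.37% for STAT. They were 4.74% for CTCF, 3.33% for ETS, 3.66% for MYC and 0.61% for CRE, too low for no match among 24 peaks to show an absence.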

How the data were processed

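The data were lists of DNase-seq peaks and hotspots for each of 2 biological replicates of MEL cells. Each peak carries a whole-number score that the authors deposited in the signal column, and each hotspot a −log10 q-value deposited by the convention of its format, with a cap at 100; hotspots were used for position and width only. Per the deposited notes, regions of replicate 1 derive from 1 alignment that both libraries name, and those of replicate 2 from its single library. Per the labels the build was mm10. Aligner, caller and depth are not given in the sources used here. A deeper or combined alignment can carry more weak sites past a caller's limit, so numbers of peaks are not compared between the lists.

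Exact repeats of a peak were dropped, 67 in replicate 1 and 7 in replicate 2. Starts were those of protein-coding transcripts in GENCODE M21 basic. Tied values take the middle rank in percentiles. Motifs were searched on both strands of the 150 bp of each peak on the assembled chromosomes: GATA (A or T, then GATA, then A or G), TTCNNNGAA (STAT), CCNCNCCC (KLF), CCGGAAG (ETS), GAGGAAG (PU.1), TGTGGT (RUNX), TGANTCA (AP-1), CACGTG (MYC), GGGCGG (SP), TGACGTCA (CRE), and the CTCF and p53 consensus by name. SP and KLF matches can overlap. Sequences were read from the GRCm38 reference, without bases in annotated exons.

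All 8 genes were named, with the 3 highest replicate 2 peaks of each window outside promoters of other genes, and, of each pathway list, the genes with the highest and lowest replicate 2 promoter score and those without a promoter peak in either list. A named peak and a named gene that this rule gives are not reported here. The members, lists and tests were chosen with earlier results of these data known. Counts of repeated motif matches, of higher peaks away from starts and of starts in hotspots were added after values were seen. Alternatives were other promoter and flank widths, shorter lists, hotspots, other overlap rules and narrower motif windows. Code was tested on simulated data: all 400 promoter assignments, 400 window counts, 600 overlaps and 600 planted motifs came out right. Tables were made with pandas 2.3.3 and numpy 2.4.6 under Python 3.11.15, intervals with scipy 1.17.1, and figures with matplotlib 3.10.9.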

Additional observations from a re-analysis of the deposited data

How the results depend on the processing

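All 8 genes had a promoter peak in both lists under each of the 6 alternatives tried (500 bp, 2500 bp, the higher-scoring 50% of a list, lists of equal length, hotspots, the longest transcript's start). The pathway count stayed within 42 to 47 in replicate 1 and 38 to 42 in replicate 2. The share of all genes with a promoter peak was not compared under these alternatives. The median number of peaks in the windows, 51 and 19, became 18 and 6.5 with flanks of 10 kb, 86.5 and 32.5 with 100 kb, and 28.5 in replicate 1 with the list cut to 89046 peaks. Under these settings all 8 genes remained above the median of all genes. The overlapped share of replicate 1 peaks, 35.1%, became 43% with centres within 500 bp and 63.6% with lists of equal length. That of replicate 2 peaks, 94.7%, became 89.4% with at least 50% of the shorter peak covered, 100% with centres within 500 bp and 88.8% with lists of equal length, so both shares move with the rule and with list length. Promoter percentiles crossed the median of genes for Bid in both lists and for Bcl2 and Bax in replicate 2, the last moving only from 48.2 to 51.6. The score's ceiling limits what replicate 1 can separate, and 1 list for each replicate limits every comparison. No paired analysis was possible because the result comes from no test.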
